A study of Homo sapiens with 9 samples.

Results

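The genes described here are 36 genes of the NRF2 pathway, of thiol redox enzymes and of iron storage, out of 58243 genes in each library. They were taken by symbol from a given list, and each symbol matched 1 Ensembl gene. The list holds 5 regulators of NRF2 (NFE2L2, KEAP1, BACH1, MAFG and SQSTM1), 4 genes of glutathione synthesis and recycling, 5 enzymes that use glutathione, 4 thioredoxins and thioredoxin reductases, 7 peroxiredoxins and sulfiredoxin, 3 superoxide dismutases and catalase, 6 other NRF2 targets and the 2 ferritin chains.

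Expression was measured by bulk RNA-seq in DOHH2, an established human B-cell line from a transformed follicular lymphoma, in 3 groups of 3 libraries. The culture group (day 0) held cultured cells of the line, collected on the date of the graft. The 2 femur groups were human CD20-positive cells sorted by flow cytometry from the femurs of RAGγc mice, an immunodeficient strain, at day 19 or day 40 after grafting with the same line. Femur cells went through flushing, enzyme digestion, bead depletion of mouse CD45 and Ter119 cells, and sorting, and culture cells did not, so growth in the marrow and this handling cannot be told apart. The labels name no cultures or animals, so the p-values below reflect how far these samples differ from each other, and part of that spread may be technical. By the dates in the sample titles the day 19 libraries were taken 18, 19 and 19 days after the culture library of their sampling period. The libraries labelled day 40 were taken 11, 26 and 39 days after it, so replicates 1 and 2 do not match that label if their cells were grafted on the culture date.

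NRF2, the product of NFE2L2, is a transcription factor that KEAP1 holds in the cytoplasm and hands to degradation. When electrophiles or oxidants modify KEAP1, NRF2 accumulates, pairs with small MAF proteins and binds antioxidant response elements, while BACH1 occupies the same elements as a repressor until heme displaces it. Its targets make and recycle glutathione, reduce thioredoxin and peroxiredoxins, and build ferritin, the iron store made of heavy (FTH1) and light (FTL) chains whose translation is also set by an iron-responsive element in the mRNA.

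The sequence that joins ferritin to iron sensing is shown for both chains. A C followed by any 5 bases and CAGTG was searched in the 5′ untranslated region of the GENCODE 29 transcripts FTH1-201 and FTL-201 and was found 1 time in each. Capitals mark the bulged C and the 6-base loop of the iron-responsive element. The FTH1 stretch lies at chr11:61967576-61967602 (hg38, minus strand) and the FTL stretch at chr19:48965335-48965361 (plus strand).

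FTH1: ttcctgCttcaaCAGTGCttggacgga

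FTL: ctcttgCttcaaCAGTGTttggacgga

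Matches to the core of the antioxidant response element, TGACNNNGC on either strand, were searched in RefSeq promoter windows of GRCh38.p14, from 250 bases before to 50 bases after each annotated start. The table held windows for 27 of the 36 genes. Of these, 5 (18.5%) had a match, against 16.1% of the 27305 genes with a window. Counted by window, 6 of 42 windows of the listed genes (14.3%) and 13.3% of 35116 windows of all genes held it. A match describes letters and does not show binding. Of the 19 listed genes that fell at either day, with or without a window, 3 held a match. A gene without a window counts here as having no match, so this share cannot be set beside that of all genes. The matches are printed to show which letters were found in which gene. Each line runs 5′ to 3′ on the strand of the gene, and capitals mark the match.

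GCLM, chr1:93909446-93909474 (minus): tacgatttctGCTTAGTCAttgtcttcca

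GSTP1, chr11:67583736-67583764 (plus): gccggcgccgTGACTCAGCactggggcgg

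TXNRD1, chr12:104215670-104215698 (plus): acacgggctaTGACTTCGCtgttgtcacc

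KEAP1, chr19:10502784-10502812 (minus): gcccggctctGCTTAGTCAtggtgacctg

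PIR, chrX:15493289-15493317 (minus): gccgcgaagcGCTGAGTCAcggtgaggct

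The match began 34 bases before the start in GCLM, 66 in GSTP1, 99 in TXNRD1 and 31 in KEAP1, and 27 bases after it in PIR. A further match lay in the KEAP1 window, and 2 further ones lay in windows of TXNRD1. The genes with a match did not share a course: GSTP1, TXNRD1 and KEAP1 fell in both femur groups, GCLM passed no test, and PIR had no counts.

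Libraries held 21071239 to 29456271 counts. All 7 B-cell markers passed the filter on low counts, with summed levels of 3775 to 4769.8 CPM (counts scaled to 1e+06 per library, with TMM factors) in culture, 2558 to 2767 at day 19 and 3004 to 3212 at day 40. Of 8 erythroid markers none passed, their sum was at most 0.492 CPM in any library, and HBB, HBA2 and AHSP were at 0. Of 9 myeloid markers 1 passed (LYZ), the sum was 2.76 to 5.08 CPM in culture, 4.98 to 6.64 at day 19 and 3.03 to 5.76 at day 40, and S100A8, S100A9 and CD163 were at 0. LYZ made up most of that sum. ITGAM had no counts in culture and 4 to 11 in each femur library, and CD14 had at most 1 in culture and 3 to 13 in each femur library. Of 9 stromal markers 1 passed (PDGFRB), the sum rose from at most 0.504 CPM in culture to 3.48 to 6.80 in the femur, and COL1A2, COL3A1, LUM, POSTN and CXCL12 were at 0. Of 6 endothelial markers 1 passed (PECAM1), with a sum of 4.42 to 7.60 CPM in culture, 1.61 to 3.12 at day 19 and 3.28 to 4.24 at day 40. Early response and heat shock genes moved with the femur samples. By edgeR 9 of 13 tested rose at day 19 and 11 at day 40 (69.2% and 84.6%, beside 26.3% and 23.3% of all genes). DESeq2 and voom each called 8 and 9 higher. None of these genes fell by edgeR, DESeq2 or voom, or at an unadjusted p under 0.05. Their summed level was 559 to 595 CPM in culture, 695 to 870 at day 19, and 2036, 613 and 774 CPM in day 40 replicates 1, 2 and 3. The 82 genes of cytosolic ribosomal proteins took 9.52%, 12.2% and 9.69% of the counts in culture and 7.77% to 8.67% in the femur. The part of these shifts in the results below was not tested unless a value is given.

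Most of the thiol redox genes that changed were lower in the femur. Of 33 genes with enough counts to test, 18 fell and 3 rose at day 19 against culture, and 17 fell and 3 rose at day 40 (edgeR's quasi-likelihood test, Benjamini-Hochberg adjusted over 15163 genes). The share called was 63.6% at day 19, beside 52.8% of all genes, and 60.6% at day 40, beside 46.6% of all genes. The split by direction stood further from the background than the share called did: 54.5% of the listed genes fell at day 19, where 26.5% of all genes fell and 26.3% rose, and 51.5% fell at day 40, where 23.3% of all genes fell and 23.3% rose. The median log2 fold change of the 33 genes was -0.25 at day 19 and -0.26 at day 40, against 0.013 and 0.015 over all genes tested. Changes were mostly modest. Only BLVRB, GSTP1 and PRDX5 changed by at least 2-fold at day 19, and only BLVRB and GSTP1 at day 40, where 16.6% and 12.8% of all genes did. In bulk RNA a lower share of cells that express a gene and less RNA per cell cannot be told apart.

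**Figure D1:**
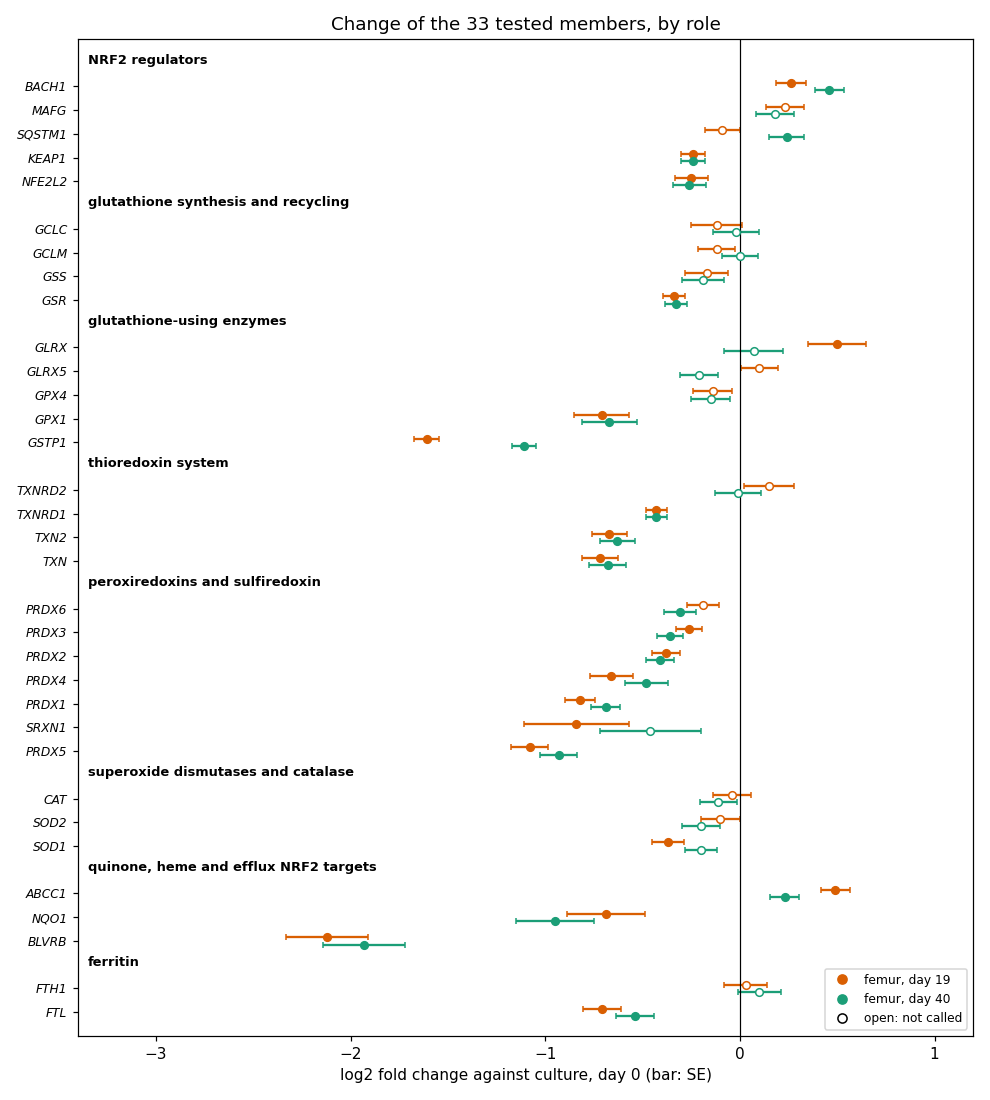
The log2 fold change against culture of each of the 33 tested genes, with its standard error, is plotted for day 19 and day 40, grouped by role (x axis, log2 units; filled points passed the adjusted p of 0.05). Points of the peroxiredoxins, from -1.08 to -0.19 at day 19, lie to the left of 0, and those of the regulators, from -0.26 to 0.46, lie on both sides.

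The regulators of NRF2 changed little and in both directions. NFE2L2 itself measured 62.0, 53.4 and 60.3 CPM in the culture libraries, 52.9, 47.3 and 47.3 CPM at day 19 and 51.6, 44.4 and 50.8 CPM at day 40. The lowest culture library stood just above the highest femur library, and the fall was small at both days (log2 fold change -0.25, SE 0.085, adjusted p = 0.0248 at day 19; -0.26, SE 0.084, adjusted p = 0.0237 at day 40). This call was lost in 5 of 19 alternative analyses at each day, for instance without culture replicate 1 at both days. Exons of AGPS overlap NFE2L2 on the opposite strand, and the strand setting of the counting is not stated, so reads of the 2 genes cannot be told apart.

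KEAP1, the adaptor that targets NRF2 for degradation, fell by a like amount from 110 ± 6.19 CPM to 93.2 ± 1.55 at day 19 and 93 ± 3.41 at day 40 (SD, n = 3; edgeR log2 fold change -0.24 at both days, adjusted p = 0.00594 and 0.00675). Its day 40 call was lost with day 40 replicates 1 and 2 left out together. BACH1, the repressor that competes with NRF2, rose from 30.7 ± 1.36 CPM to 36.7 ± 1.75 and 42.2 ± 2.70 (log2 fold change 0.26, adjusted p = 0.0128, and 0.46, adjusted p = 4.37e-04). All 6 femur libraries of BACH1 stood above all 3 culture libraries. Its day 19 call was lost without culture replicate 3, without day 19 replicate 1, or with no filter on low counts. MAFG, a small MAF partner of NRF2, measured 38.9 ± 4.98, 45.8 ± 2.5 and 44.2 ± 3.41 CPM and passed no test (adjusted p = 0.0606 and 0.139).

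SQSTM1 encodes p62, an autophagy receptor that can sequester KEAP1. It measured 41.5, 48.9 and 41.9 CPM in culture, 40.3, 43.4 and 40.3 CPM at day 19 and 57.4, 50.5 and 48.1 CPM at day 40. Culture and day 40 overlapped. The day 40 rise was called (log2 fold change 0.24, adjusted p = 0.0414), but 12 of 19 alternatives lost it, and it was 0.15 (adjusted p = 0.195) without day 40 replicate 1. That library had the highest SQSTM1 level of all 9 and also the highest summed early response and heat shock genes, with HSPA1B at 250.3 CPM against 13.6 and 30.4 in the other day 40 libraries. Exons of MGAT4B and MRNIP overlap SQSTM1 on the opposite strand.

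The enzymes that make glutathione did not pass the test. GCLC and GCLM are the catalytic and modifier subunits of glutamate-cysteine ligase, the rate-limiting enzyme. GCLC measured 23.8 ± 1.33 CPM in culture, 21.9 ± 1.67 at day 19 and 23.6 ± 4.41 at day 40, and GCLM measured 27.5 ± 2.84, 25.4 ± 1.88 and 27.6 ± 1.39. Their log2 fold changes lay between -0.12 and 0.00 with SE of 0.094 to 0.13. Glutathione synthetase, GSS, measured 44.8 ± 5.71, 39.8 ± 3.58 and 39.3 ± 3.6 CPM (log2 fold change -0.17, SE 0.11, adjusted p = 0.196 at day 19; -0.19, adjusted p = 0.16 at day 40). GSR, the reductase that returns oxidised glutathione to its thiol form, did fall, from 125 ± 4.41 CPM to 99.1 ± 1.57 and 99.7 ± 2.88 (log2 fold change -0.34, adjusted p = 3.53e-04, and -0.33, adjusted p = 5.84e-04), with no overlap between culture and femur.

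GSTP1, the pi-class glutathione S-transferase, had the smallest adjusted p on the list (chr11:67583595-67586656, plus strand, hg38). Its level was 501, 534 and 506 CPM in culture, 176, 170.4 and 160.1 CPM at day 19 and 241, 243 and 229 CPM at day 40. The 3 groups did not overlap in any pair: culture was highest, day 19 lowest, and day 40 in between. The log2 fold change against culture was -1.61 at day 19 (SE 0.064, adjusted p = 3.02e-09) and -1.11 at day 40 (SE 0.063, adjusted p = 8.08e-08). Tested directly, day 40 stood above day 19 by a log2 fold change of 0.50 (SE 0.063, adjusted p = 8.13e-04).

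GPX1, a selenium-dependent glutathione peroxidase of the cytosol, measured 59.7, 90.0 and 60.1 CPM in culture, 40.3, 41.3 and 46.2 CPM at day 19 and 48.2, 43.4 and 39.9 CPM at day 40 (chr3:49357171-49358600, minus strand). Every femur library stood below every culture library, and culture replicate 2 was the highest. The log2 fold change was -0.71 (SE 0.14, adjusted p = 0.00109) and -0.67 (SE 0.14, adjusted p = 0.00203), and without culture replicate 2 it was -0.50 and -0.46. GPX4, the peroxidase that reduces lipid hydroperoxides in membranes, passed no test, at 94.9 ± 15.2 CPM in culture, 85.8 ± 5.53 at day 19 and 85.4 ± 4.84 at day 40 (log2 fold change -0.14 and -0.15, SE 0.10).

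The glutaredoxins use glutathione to reduce mixed disulfides (GLRX) or to assemble mitochondrial iron-sulfur clusters (GLRX5). GLRX measured 20.6, 33 and 22.4 CPM in culture, 33, 36.6 and 37.7 CPM at day 19 and 29.9, 26.2 and 23.7 CPM at day 40 (chr5:95751319-95823005, minus strand). At day 19 it was called higher (log2 fold change 0.50, SE 0.15, adjusted p = 0.015), although the highest culture library and the lowest day 19 library lay at the same rounded level. Without culture replicate 1 or without culture replicate 3 the day 19 call was lost. Day 40 overlapped culture (log2 fold change 0.07, adjusted p = 0.717; 0.30, adjusted p = 0.0381, without culture replicate 2). GLRX5 passed no test against culture, at 54.4 ± 4.93, 58.2 ± 4.58 and 47.2 ± 5.02 CPM.

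Cytosolic thioredoxin and its reductase both fell. TXN, the cytosolic thioredoxin that reduces peroxiredoxins and many other proteins, measured 105, 138 and 123 CPM in culture, 77.9, 75.4 and 68.7 CPM at day 19 and 73.8, 80.8 and 74.0 CPM at day 40 (chr9:110243811-110256640, minus strand). The femur libraries lay in a narrow band below all culture libraries, and TXN fell by 0.72 (SE 0.093, adjusted p = 4.61e-05) and by 0.68 (SE 0.093, adjusted p = 1.10e-04) on the log2 scale. TXNRD1, the selenoenzyme that recycles TXN with NADPH, measured 242 ± 5.12 CPM in culture, 180.1 ± 3.85 at day 19 and 179.9 ± 2.45 at day 40 (log2 fold change -0.43 at both days, adjusted p = 4.05e-05 and 5.95e-05).

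Of the mitochondrial pair only TXN2 passed the test. TXN2, the mitochondrial thioredoxin, measured 107, 137 and 105 CPM in culture, 74.4, 71.4 and 73.8 CPM at day 19 and 74.6, 78.4 and 72.8 CPM at day 40 (chr22:36467036-36482030, minus strand), with no overlap between culture and femur. Its log2 fold change was -0.67 (SE 0.092, adjusted p = 7.33e-05) and -0.63 (SE 0.091, adjusted p = 1.68e-04). TXNRD2, the mitochondrial reductase, passed no test, at 16.7 ± 2.16, 18.5 ± 0.387 and 16.6 ± 2.53 CPM. A difference between the courses of TXN2 and TXNRD2 was not tested. Of the 5 genes whose products act mainly in mitochondria (TXN2, TXNRD2, PRDX3, SOD2 and GLRX5), TXN2 and PRDX3 fell at both days and the other 3 passed no test against culture. This is 40% lower at each day, beside 26.5% and 23.3% of all genes, and 5 genes are too few to set apart from those shares. PRDX5, found in mitochondria among other places, is not in that count.

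**Figure D2:**
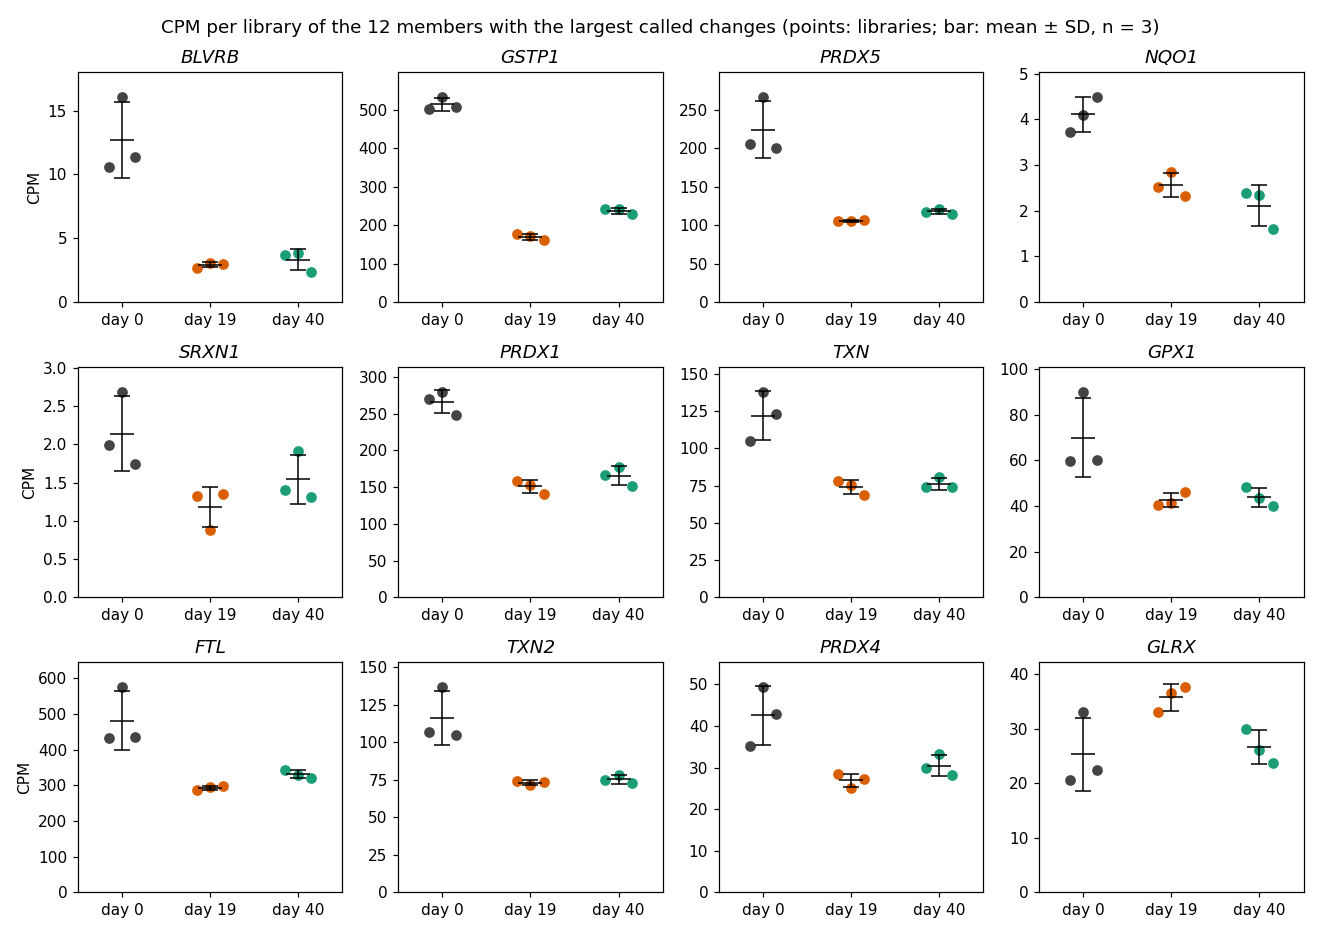
The CPM of the 12 genes with the largest called changes is plotted in a panel per gene for each of the 9 libraries (points, by group, y axes from 0), with bars for the mean ± SD of each group. GSTP1 falls from 501 to 534 CPM in culture to 160.1 to 176 at day 19 and stands at 229 to 243 at day 40, and BLVRB falls from 10.6 to 16.1 CPM to at most 3.86.

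Of the peroxiredoxins and sulfiredoxin, 6 of 7 fell at day 19 and 6 of 7 at day 40, beside 26.5% and 23.3% of all genes, and all 7 fold changes lay below 0 at both days. Peroxiredoxins are abundant enzymes that reduce hydrogen peroxide with a reactive cysteine, and sulfiredoxin repairs that cysteine when it is overoxidised. Summed over the 7 genes, the level was 989 ± 88 CPM in culture and lower in both femur groups, at 660 ± 9 and 668 ± 27.3 (SD, n = 3).

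PRDX5, an atypical enzyme found in mitochondria, peroxisomes and cytosol, fell the most of them. It measured 205, 267 and 200.1 CPM in culture, 105, 105 and 107 CPM at day 19 and 117, 121 and 115 CPM at day 40 (chr11:64318088-64321811, plus strand). The 3 groups did not overlap, with day 19 lowest. The log2 fold change was -1.08 (SE 0.095, adjusted p = 1.8e-06) at day 19 and -0.93 (SE 0.095, adjusted p = 1.1e-05) at day 40, and the femur days did not differ by the test (0.16, adjusted p = 0.47).

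PRDX1, the cytosolic peroxiredoxin that is a textbook NRF2 target, measured 270.1, 280.1 and 249 CPM in culture, 159, 153 and 141 CPM at day 19 and 166, 178 and 152 CPM at day 40 (chr1:45511036-45523047, minus strand). Culture and femur did not overlap (log2 fold change -0.82, SE 0.076, adjusted p = 2.93e-06; -0.69, SE 0.076, adjusted p = 1.97e-05). PRDX4, the peroxiredoxin of the endoplasmic reticulum, measured 35.3, 49.4 and 42.9 CPM in culture, 28.4, 25.1 and 27.2 CPM at day 19 and 29.9, 33.2 and 28.2 CPM at day 40 (chrX:23664262-23686399, plus strand). Every femur library again lay below every culture library (log2 fold change -0.66, SE 0.11, adjusted p = 4.34e-04; -0.48, SE 0.11, adjusted p = 0.00424).

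The remaining peroxiredoxins moved less. PRDX2, which is cytosolic, fell by 0.38 and 0.41 on the log2 scale (adjusted p = 8.0e-04 and 6.42e-04). PRDX3, which is mitochondrial, fell by 0.26 and 0.36 (adjusted p = 0.00536 and 8.31e-04). PRDX6, the 1-cysteine member, passed the test only at day 40 (log2 fold change -0.19, adjusted p = 0.0685 at day 19; -0.31, adjusted p = 0.009 at day 40), and its day 40 level did not differ from day 19 by the test (adjusted p = 0.557).

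SRXN1, sulfiredoxin, was close to the low end of the measured range. It measured 1.99, 2.69 and 1.74 CPM in culture, 1.32, 0.885 and 1.35 CPM at day 19 and 1.41, 1.91 and 1.31 CPM at day 40 (chr20:646615-653370, minus strand). Day 19 lay below culture and day 40 overlapped it. The fall was called at day 19 (log2 fold change -0.84, SE 0.27, adjusted p = 0.0203) and not at day 40 (-0.46, SE 0.26, adjusted p = 0.166). The day 19 call was lost without culture replicate 2 (-0.66, adjusted p = 0.0707) and without day 19 replicate 2.

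Of the superoxide dismutases and catalase, only SOD1 was called. SOD1, the cytosolic copper and zinc dismutase, fell at day 19 from 207 ± 16.1 CPM to 159.8 ± 2.09 (log2 fold change -0.37, adjusted p = 0.00202) and measured 181 ± 18.8 CPM at day 40 (-0.20, adjusted p = 0.0633). SOD2, the manganese enzyme of mitochondria, measured 87.7 ± 6.07, 81.7 ± 5.41 and 76.2 ± 12.7 CPM, and CAT, catalase, measured 26.7 ± 3.5, 26 ± 1.31 and 24.8 ± 0.646 CPM. Neither passed a test, and SOD2 shares exonic sequence on opposite strands with WTAP.

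BLVRB, which reduces biliverdin and flavins after heme breakdown and is abundant in red cells, had the largest fold change on the list. It measured 10.6, 16.1 and 11.4 CPM in culture, 2.68, 3.07 and 3.00 CPM at day 19 and 3.70, 3.86 and 2.38 CPM at day 40 (chr19:40447765-40465840, minus strand). Culture and femur were far apart, and the femur days overlapped (log2 fold change -2.12, SE 0.21, adjusted p = 6.08e-06 at day 19; -1.93, SE 0.21, adjusted p = 1.75e-05 at day 40). NQO1, the quinone reductase that serves as a common readout of NRF2, was low everywhere, at 3.73, 4.10 and 4.50 CPM in culture, 2.51, 2.84 and 2.33 CPM at day 19 and 2.39, 2.35 and 1.60 CPM at day 40 (chr16:69706996-69726951, minus strand). All femur libraries lay below all culture libraries of NQO1 (log2 fold change -0.69, SE 0.20, adjusted p = 0.0128; -0.95, SE 0.20, adjusted p = 0.0023), and the day 19 call was lost without day 19 replicate 3 (adjusted p = 0.0515).

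ABCC1, the MRP1 pump that exports glutathione conjugates, was higher in the femur. It measured 116, 117 and 116 CPM in culture, 149.9, 166 and 175 CPM at day 19 and 126, 136 and 147 CPM at day 40. Every femur library lay above every culture library. The rise was called at day 19 (log2 fold change 0.49, SE 0.073, adjusted p = 1.39e-04) and, with less margin, at day 40 (0.23, SE 0.073, adjusted p = 0.0231). The day 40 call was lost without any 1 of culture replicate 1, culture replicate 3, day 40 replicate 2 or day 40 replicate 3.

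The other 3 NRF2 targets had too few counts to test. HMOX1, heme oxygenase 1, which NRF2 induces and BACH1 represses, had 1, 1 and 5 counts in culture, 0, 0 and 1 at day 19 and 1, 1 and 0 at day 40, 10 in all. OSGIN1, an oxidative stress-induced growth inhibitor, had 3 counts over the 9 libraries, from 2 day 19 libraries and 1 day 40 library. PIR, pirin, an iron-binding nuclear protein, had none, which allows up to 3 counts, or 0.0136 CPM over all 9 libraries. Of the 17 textbook NRF2 targets on the list, 14 were testable. Of those, 8 fell and 1 rose at day 19, and 7 fell and 2 rose at day 40, with a median log2 fold change of -0.38 at both days. This is 57.1% and 50% lower, beside 26.5% and 23.3% of all genes, and 1 of the day 40 rises is that of SQSTM1, which most alternatives lost.

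Of the 2 ferritin chains, FTL fell and FTH1 passed no test. FTL, the light chain that favours iron mineral formation, measured 433, 576 and 435 CPM in culture, 287, 296 and 297 CPM at day 19 and 343, 329.7 and 320.3 CPM at day 40 (chr19:48965301-48966878, plus strand). The 3 groups of FTL did not overlap: culture was highest and day 19 lowest. The light chain fell by 0.71 on the log2 scale at day 19 (SE 0.098, adjusted p = 7.29e-05) and by 0.54 at day 40 (SE 0.097, adjusted p = 7.95e-04). Without culture replicate 2, which was the highest library for FTL and for the share of ribosomal protein counts, the changes were -0.57 and -0.40 (adjusted p = 2.44e-06 and 6.76e-05).

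FTH1, the heavy chain with the ferroxidase centre, measured 179.6, 221 and 154 CPM in culture, 179, 200 and 188 CPM at day 19 and 189, 197 and 209.9 CPM at day 40 (chr11:61959718-61967660, minus strand). All 3 groups overlapped (log2 fold change 0.03, SE 0.11, adjusted p = 0.827; 0.10, SE 0.11, adjusted p = 0.458), and without culture replicate 2 the day 40 value was 0.24 (adjusted p = 0.024). The ratio of FTH1 to FTL counts within a library does not depend on the scaling of libraries. It was 0.414, 0.385 and 0.355 in culture, 0.623, 0.675 and 0.635 at day 19 and 0.550, 0.598 and 0.655 at day 40.

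Every femur ratio lay above every culture ratio, including in culture replicate 2. The difference in log2 ratio was 0.747 for day 19 and 0.643 for day 40, and -0.103 between the femur days. An exact two-sided permutation test gave p = 0.1 for both comparisons with culture, the smallest value that 3 libraries against 3 allow (0.15 after Benjamini-Hochberg adjustment over 3 comparisons), and p = 0.3 between the femur days. Both transcripts carry the iron-responsive element printed above, with the same bulged C and the same first 5 loop bases. FTH1 has 25 annotated pseudogenes with 188 counts, 0.446% of its own, and FTL has 16 with 41 counts. How reads that map to several places were counted is not stated.

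**Figure D3:**
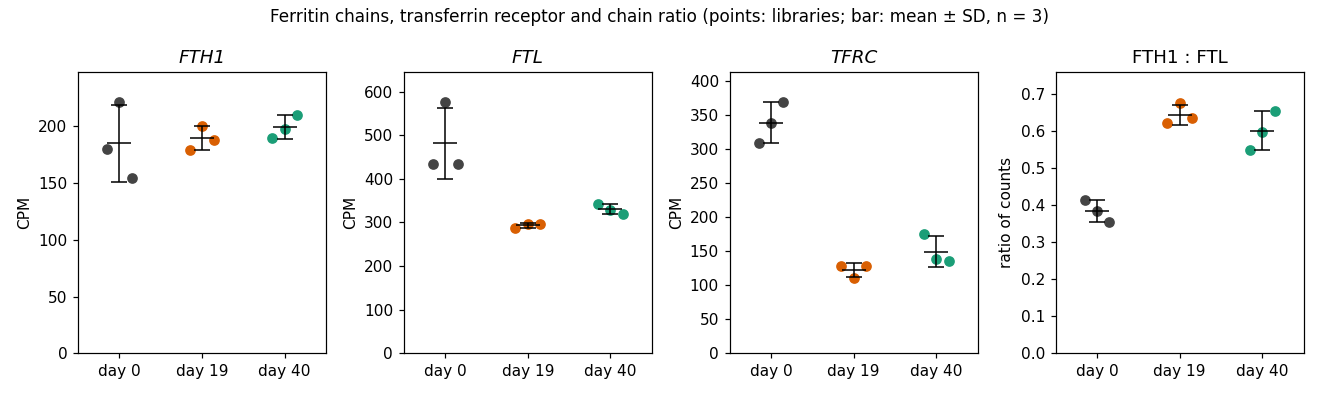
The CPM of FTH1, FTL and the transferrin receptor gene TFRC (the first panels, y axis) and the ratio of FTH1 to FTL counts (last panel, y axis) are plotted for each of the 9 libraries, with bars for the mean ± SD of each group. FTL falls from 433 to 576 CPM in culture to 287 to 343 in the femur, FTH1 groups overlap, TFRC falls from 309 to 369 CPM to at most 175, and the ratio moves from 0.355 to 0.414 in culture to 0.550 to 0.675 in the femur.

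The listed genes spanned a wide range of expression per unit of length. Length here was the union of all annotated exons of a gene, not that of the transcript expressed. The ranks between genes thus also depend on the annotation. In CPM per kb of exon, FTL was the highest gene in culture at 548, followed by GSTP1 at 269, PRDX5 at 251, PRDX1 at 175, TXN at 107 and SOD1 at 103. FTH1 stood at 91.2 CPM per kb in culture. At day 19 FTL was still first at 334 CPM per kb, followed by PRDX5 at 118, PRDX1 at 99.3, FTH1 at 93.2 and GSTP1 at 88.3. GSTP1 thus ranked behind 4 genes at day 19, and at day 40 it stood at 124, between PRDX5 at 132 and PRDX1 at 109. At the low end, TXNRD2 (2.00 CPM per kb in culture), NQO1 (1.26) and SRXN1 (0.794) held the last places among the genes tested.

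**Figure D4:**
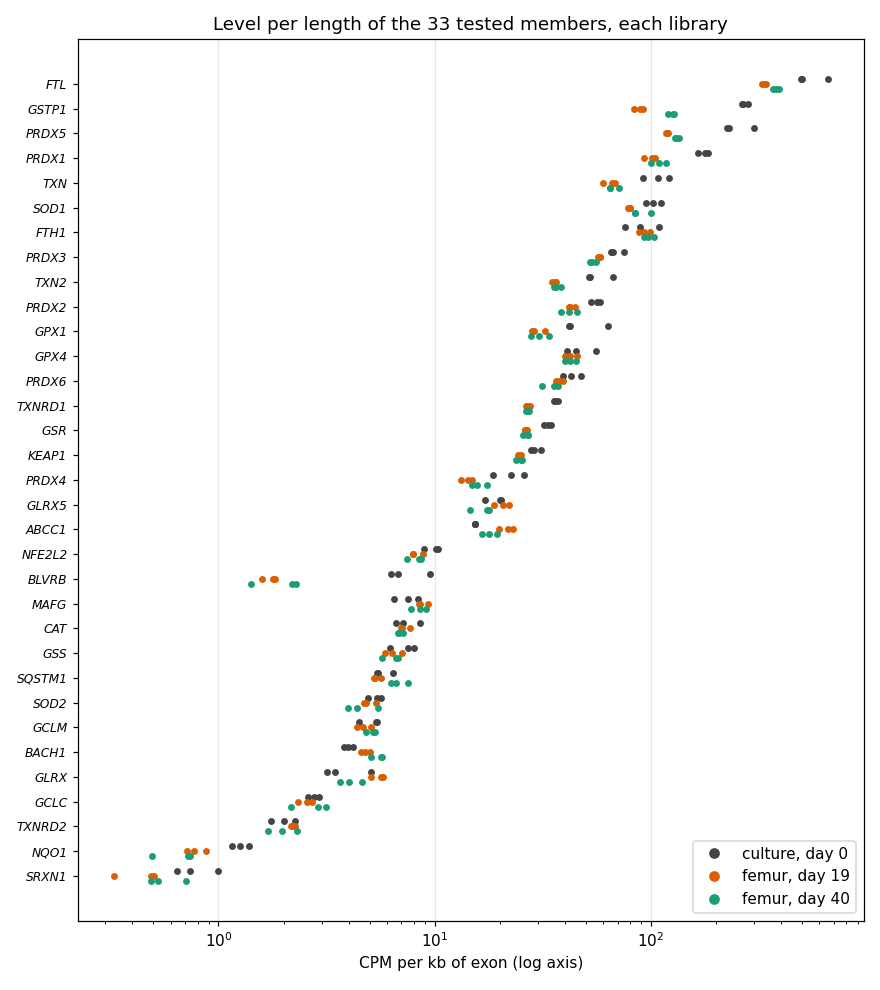
The level of each tested gene in CPM per kb of exon (x axis, log scale) is plotted for all 9 libraries, with genes ordered by their mean in culture and coloured by group. FTL tops the order at 548 CPM per kb in culture and SRXN1 ends it at 0.794.

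The direction of change went with exon length within the list. All 4 genes with under 1.5 kb of exon fell at day 19 and at day 40, whereas 1 of 9 genes over 6 kb fell and 3 rose at each day. Of all genes over 6 kb, 24.1% fell and 33.6% rose at day 19, and 20.2% fell and 30.5% rose at day 40. The 3 rises among 9 long genes are thus near the share of all long genes. Across the 33 genes, Pearson's r between log2 exon length and log2 fold change was 0.63 at day 19 and 0.61 at day 40, and Spearman's rho was 0.73 and 0.71, a description over genes that share the same libraries. Over all genes tested at day 19, the median log2 fold change was 0.19 under 1.5 kb (17.6% lower), -0.09 from 1.5 to 3 kb (31.5% lower), -0.03 from 3 to 6 kb (29.8% lower) and 0.07 over 6 kb (24.1% lower). From 1.5 kb upward all genes thus had the same order as the list in smaller steps, and the shortest class did not. Removing a trend with exon length from each library left 18 listed genes lower and 3 higher at day 19. At day 40 it left 18 lower and 1 higher, with the rises of ABCC1 and SQSTM1 no longer called.

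Falls were also counted by level. Of the 4 listed genes with a mean over 200 CPM all fell at day 19, in a class where 43.2% of all genes fell, and 10 of 16 between 50 and 200 CPM fell, where 37.1% of all genes did. Between 10 and 50 CPM 1 of 10 fell, beside 31.5% of all genes, and under 10 CPM all 3 (BLVRB, NQO1 and SRXN1) fell, beside 14.7%, so falls did not follow the order of levels.

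**Figure D5:**
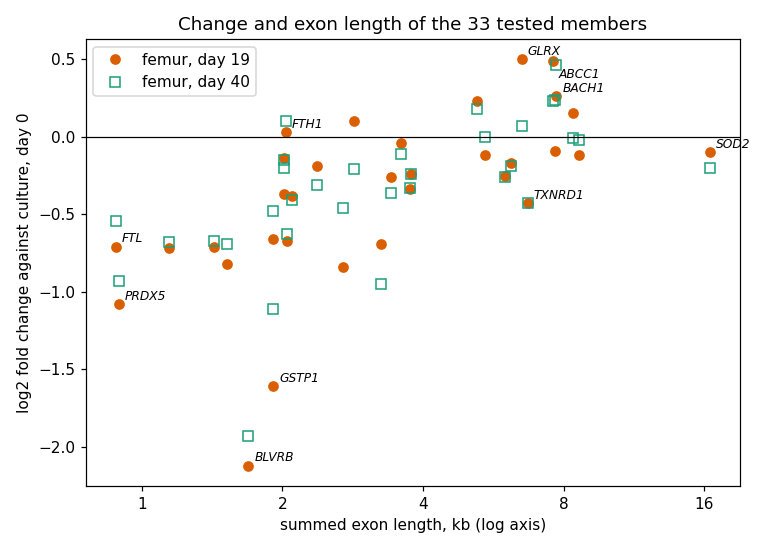
The log2 fold change of the tested genes at day 19 and day 40 against culture (y axis, filled circles for day 19 and open squares for day 40) is plotted against the summed exon length of each gene in kb (x axis, log scale). Short genes such as PRDX5 (-1.08 at day 19) lie below 0, and ABCC1 (0.49), BACH1 (0.26) and GLRX (0.50) lie above it among the longest.

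Between the femur days few listed genes were called. GSTP1 was the only one of 33 genes called (3.03%), beside 4.68% of all genes (3.23% higher and 1.45% lower). No listed gene was called with a 2-fold change, beside 1.29% of all genes, and the median log2 fold change was 0.01. None was called lower by edgeR or voom, 1 was by DESeq2, and 3 were lower at an unadjusted p under 0.05. The femur days did not overlap in 10 of the 33 genes, beside 26.6% of all genes. GSTP1 was 1 of these, and of the other 9, which did not pass the test, those with the lowest adjusted p being SQSTM1 (0.33, adjusted p = 0.0526), ABCC1 (-0.27, adjusted p = 0.0597), GLRX5 (-0.30, adjusted p = 0.108) and GLRX (-0.43, adjusted p = 0.155). In this comparison the deviations of libraries of the same sampling period correlated more highly than those of other pairs, which was not tested. With the period as a replicate block SQSTM1 (0.33, adjusted p = 0.0363), ABCC1 (-0.27, adjusted p = 0.0278) and GLRX5 (-0.31, adjusted p = 0.0143) were also called, so that 2 listed genes were higher and 2 lower, beside 6.37% of all genes called in that fit. With day 40 replicates 1 and 2 left out, the libraries whose dates do not match the label, GSTP1 stood at 0.45 (adjusted p = 0.0899) and no listed gene was called between the femur days. In that same fit 16 listed genes were lower and 2 higher at day 40 against culture.

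The surrounding pathways were read from lists of other genes. Of 21 tested genes among 28 of the NRF2 axis and NADPH supply, 13 fell and 2 rose at day 19 and 12 fell and 1 rose at day 40. The shares lower, 61.9% and 57.1%, stood beside 26.5% and 23.3% of all genes, and the shares higher, 9.52% and 4.76%, beside 26.3% and 23.3%. SLC7A11, the cystine importer that feeds glutathione synthesis and is an NRF2 target, fell from 21.6 ± 0.868 CPM to 7.27 ± 1.70 and 9.25 ± 0.758 (log2 fold change -1.58, adjusted p = 3.59e-06, and -1.23, adjusted p = 3.58e-05). TRIM16L, related to TRIM16, fell by 0.70 and 0.83 on the log2 scale (adjusted p = 0.0207 and 0.00927), the first call being lost without culture replicate 2 or day 19 replicate 3. MAFK, a small MAF protein, rose from 64.1 ± 7.12 CPM to 127 ± 10.2 at day 19 and 97.9 ± 9.88 at day 40 (log2 fold change 0.99 and 0.61), with day 40 below day 19 (-0.38, adjusted p = 0.042). That difference was not called without culture replicate 3, day 19 replicate 2 or 3, or day 40 replicate 1 or 2. Scaling by total library size only also lost it. BACH2, the B-cell relative of BACH1, rose at day 19 only by the test (0.31, adjusted p = 0.0241; 0.21, adjusted p = 0.128 at day 40), and that call was lost without culture replicate 2, culture replicate 3, day 19 replicate 1 or day 19 replicate 2.

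Of 18 tested other glutathione enzymes among 27, 8 fell and none rose at day 19, and 7 fell and 1 rose at day 40. The share called was 44.4% at each day, no higher than the 52.8% and 46.6% of all genes, and 44.4% and 38.9% were lower, beside 26.5% and 23.3%. No riser at day 19 was found by edgeR, DESeq2 or voom, or at an unadjusted p under 0.05. The largest falls were GSTA4, an alpha-class transferase (-1.24 and -0.77), and MGST2, a microsomal transferase (-1.05 and -0.86). GGT1, which breaks down extracellular glutathione, was the riser, at 2.19 ± 0.391 CPM in culture and 5.41 ± 1.44 at day 40 (log2 fold change 1.31, adjusted p = 0.00199). The day 40 call of GSTA4 was lost without culture replicate 2 or without day 40 replicate 1 or 3.

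Of 19 tested genes with a thioredoxin fold or for methionine sulfoxide among 22, 11 fell and 2 rose at day 19, and 10 fell and 2 rose at day 40 (57.9% and 52.6% lower, beside 26.5% and 23.3% of all genes). The selenoproteins SELENOW (-1.16 and -1.31) and MSRB1, a methionine sulfoxide reductase (-0.91 and -1.11), were the largest falls at day 40. At day 19 MSRB2, another such reductase, chosen after its values were seen, fell by 0.98. NXN, nucleoredoxin, rose from 21 ± 1.77 CPM to 60.5 ± 4.76 at day 19 and 36.8 ± 6.28 at day 40 (log2 fold change 1.53 and 0.81). Its level was lower at day 40 than at day 19 (-0.72, adjusted p = 0.00394). TXNDC11 rose by 0.39 and 0.38.

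Of 24 tested genes of iron handling beyond ferritin among 29, 5 rose and 6 fell at day 19, and 4 rose and 5 fell at day 40. The shares called, 45.8% and 37.5%, were below the 52.8% and 46.6% of all genes, so the count sets the list apart in neither direction. TFRC, the transferrin receptor that imports iron and whose mRNA carries iron-responsive elements in its 3′ end, measured 309, 338 and 369 CPM in culture, 128, 111 and 129 CPM at day 19 and 175, 138 and 135 CPM at day 40. Its femur libraries all lay far below culture (log2 fold change -1.47, SE 0.11, adjusted p = 3.17e-07; -1.18, SE 0.10, adjusted p = 3.38e-06). SLC39A8, a zinc and iron importer, fell by 1.31 and 0.96. ACO1, which doubles as iron regulatory protein 1, rose from 0.143 ± 0.108 CPM to 0.719 ± 0.230 and 0.664 ± 0.121, a low level throughout, and SLC25A28, a mitochondrial iron importer, rose from 22.1 ± 2.98 CPM to 40 ± 1.25 and 35.2 ± 1.52.

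Of 15 tested genes of lipid peroxidation and ferroptosis among 16, 4 rose and 5 fell at day 19, and 3 rose and 4 fell at day 40. The shares called, 60% and 46.7%, lay near the 52.8% and 46.6% of all genes. ALOX15, a lipoxygenase, fell from 6.09 ± 0.698 CPM to 0.326 ± 0.114 at day 19 (log2 fold change -4.21, adjusted p = 1.81e-07) and 1.39 ± 0.297 at day 40 (-2.13, adjusted p = 1.57e-05). SAT1, a polyamine acetyltransferase, fell at day 19 (-1.10, adjusted p = 0.003) and measured 65.4, 33.7 and 31.6 CPM at day 40, where its log2 fold change was -0.23 (adjusted p = 0.47), with a fall called when day 40 replicate 1, the highest of these, was left out. MBOAT2, a phospholipid acyltransferase, rose by 0.77 and 0.86. AIFM2, which encodes the ferroptosis suppressor FSP1, rose by 0.42 and 0.50, a call lost at both days without culture replicate 3 and at day 19 also without day 19 replicate 2 or 3. With day 40 replicates 1 and 2 left out together, the day 40 calls of GGT1, GSTA4, MGST2, TXNDC11, ACO1 and AIFM2 and the difference of NXN between the femur days were also lost.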

How the data were processed

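The authors deposited raw read counts for each gene and library, with no scaling, for 9 libraries of DOHH2 cells. Per the submitters' processing notes, FastQC 0.11.5, STAR 2.5.2a, featureCounts 1.4.6, DESeq2 1.40.1 and the hg38 build were used. The sources used here do not state the annotation, the strand setting, trimming, or what was done with mouse reads and with reads that have several positions. Without them, overlapping genes and near-identical copies cannot be separated: 8 of the 36 genes overlap genes with over 10% of their counts, and 13 have annotated pseudogenes (69 in all).

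GENCODE 29 named 57980 of 58243 identifiers and gave positions and exon lengths. In R 4.3.3, edgeR 4.0.16 filtered low counts (filterByExpr), scaled libraries (TMM) and fitted 1 quasi-likelihood model to all 9 libraries with a term for each group. P-values are two-sided and Benjamini-Hochberg adjusted over 15163 genes, and an adjusted p under 0.05 was called. CPM was computed on the scaled library sizes and is printed per library or as mean ± SD over 3 libraries. The procedure was tested on simulated data.

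The list of genes, the lists of other pathways and markers, and the tests were chosen with earlier results of these data known. Values in every library are given for the called genes with the largest changes, up to 12, and of each pathway list up to 2 genes with the largest rise and 2 with the largest fall are named. The per-library values of NFE2L2, SQSTM1, ABCC1, FTH1, TFRC, SAT1 and HSPA1B were chosen after they were seen. Alternatives were other scalings, DESeq2 1.42.0, voom in limma 3.58.1, no filter, only the groups compared, the sampling period as a block, pseudogene counts added, and libraries left out. Replicate numbers name sampling periods by the dates in the titles. Deviations from the group means of same-period libraries correlated at 0.101, 0.132 and 0.305 between day 19 and day 40. Other pairs of these groups lay at -0.184 to 0.066, below every same-period pair. The deviations are taken from each group's own mean, so these correlations are not independent of each other, and pairing was not tested. Between culture and day 40 same-period pairs lay at 0.081, 0.202 and 0.168 and other pairs at -0.2 to 0.015, the same pattern. Between culture and day 19 same-period pairs (0.033, -0.05 and 0.118) overlapped other pairs (-0.137 to 0.087), and no pairing showed.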

Additional observations from a re-analysis of the deposited data

Results flagged for a closer look

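Of the listed genes and those named from the pathway lists, 4 differed between day 19 and day 40 by edgeR's direct test. GSTP1 was the only 1 of the 33 tested listed genes (3.03%), beside 4.68% of all genes. ALOX15, NXN and MAFK were named for large changes against culture in these same libraries. Their number thus cannot be set beside a share of all genes. GSTP1 was less reduced at day 40, with a log2 difference of 0.50 (adjusted p = 8.13e-04), and this was called in 19 of 20 alternatives. The exception was the fit without day 40 replicates 1 and 2, the libraries whose dates do not match the label. ALOX15 was also less reduced at day 40, by 2.08 (adjusted p = 0.00234), in all 20 alternatives run. NXN was less raised at day 40, by a difference of -0.72 (adjusted p = 0.00394), in 19 of 20. The exception was again the fit without day 40 replicates 1 and 2. MAFK was less raised at day 40, by -0.38 (adjusted p = 0.042), and 7 of 20 alternatives lost it, that fit among them. For these genes the alternative that leaves out overlapping listed genes repeats the main fit, so it could lose none of the calls.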

How the results depend on the processing

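No fold change of a listed or named gene that was called changed sign in any alternative. Of the 21 genes called at day 19, 16 were called in every alternative, and BACH1, GLRX, NFE2L2, NQO1 and SRXN1 were not. At day 40 it was 16 of 20, without ABCC1, KEAP1, NFE2L2 and SQSTM1. The count of lower genes stayed at 16 to 19 at day 19 and 15 to 20 at day 40.

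The counts of 3 or fewer genes moved more. With 1 library left out, the genes higher at day 19 numbered 1 to 3 (1 without culture replicate 3) and those higher at day 40 numbered 1 to 5 (5 without culture replicate 2, 1 without culture replicate 3 or day 40 replicate 2). Between the femur days they numbered 1 to 3 higher (3 without culture replicate 2, 2 without day 40 replicate 3) and 0 to 2 lower (2 without culture replicate 2, 1 without day 19 replicate 1 or day 40 replicate 3). Between the femur days the count higher and lower was 2 and 0 with total library size, 2 and 1 with DESeq2, 2 and 3 with no filter, 3 and 1 with only the groups compared, and 0 and 0 without day 40 replicates 1 and 2. The cause was not tested.

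With the sampling period as a replicate block, 4 genes were higher and 19 lower at day 19, 3 and 20 at day 40, and 2 and 2 between the femur days. Between culture and day 19 same-period pairs did not stand apart from other pairs, with same-period correlations of deviations from -0.05 to 0.118. Between culture and day 40 these ran from 0.081 to 0.202, and every library correlated best with its own period. Against culture the block also called MAFG and PRDX6 at day 19 and GLRX5, SOD1 and SOD2 at day 40, and it ended no call of a listed gene. Of all alternatives, 2 were added after seeing the data. Removing the exon-length trend left 1 gene higher at day 40. Leaving out listed genes that overlap others left 16 lower at day 19 and 15 at day 40. The latter kept the main fit, so it could end no call of the genes kept. With 3 libraries a group, small changes of genes at low counts, such as SRXN1 and NQO1, are measured with wide error (SE 0.20 to 0.27), and HMOX1, OSGIN1 and PIR could not be tested.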
